A study of Mus musculus with 4 samples.

Results

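Wnt signalling genes were examined in the ureter of male mice that carried or lacked the 2 microRNAs of the miR-143/145 locus. The set was fixed by gene symbol and held every measured Wnt ligand, Frizzled receptor, Sfrp and Dkk gene together with Frzb, Wif1, Ror1, Ror2, Ryk, Lrp5 and Lrp6. It comprised 44 of 19296 genes, each read by 1 probe set. By role they were 19 Wnt ligands, 10 Frizzled receptors, 5 co-receptors, 6 inhibitors that bind the ligand and 4 Dkk genes. The 2 control mice were of genotype miR-143/145+/+ and 4.5 months old, with kidneys described as normal. The 2 knockout mice were of genotype miR-143/145-/- and 2.5 months old, and their kidneys were hydronephrotic, that is, dilated by urine that does not drain. All 4 males had a mixed 129Sv/C57BL6 background, and each contributed 1 array of whole ureter RNA. Genotype, age and kidney state differed together, so these cannot be told apart in any value given here.

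Wnt proteins are secreted, lipid-bearing ligands that act over short distances. Bound to a Frizzled receptor together with Lrp5 or Lrp6, they stabilise beta-catenin, which then drives transcription with TCF and LEF proteins. Other Wnt proteins, Wnt5a among them, signal mainly through Ror or Ryk receptors and the planar polarity and calcium branches. Sfrp proteins, Frzb and Wif1 bind the ligands outside the cell, while Dkk1, Dkk2 and Dkk4 bind the Lrp co-receptors. In the developing ureter, Wnt ligands from the epithelium act on the surrounding mesenchyme, from which the smooth muscle coat forms.

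Expression is given as the log2 value deposited for each array. The median over probe sets was between 7.81 and 7.89 on the 4 arrays. A background level of log2 6.58 was taken from 1024 olfactory receptor genes, and 37 of the 44 genes exceeded it in 1 genotype or both. Mir143 and Mir145a, the deleted genes, were lower in knockout by at least 2.24-fold and 3.42-fold, with both knockout arrays below background. All 10 smooth muscle markers and all 12 urothelial markers tested lay above background, as did 9 of 9 adipocyte markers, 10 of 11 kidney markers and 0 of 7 markers of male accessory glands. In whole ureter, more cells of a type and more RNA per cell cannot be told apart. Genes of low level tended to read lower in knockout: of the 5489 genes whose mean lay at or below background, 74.1% had a negative difference, with a median of -0.12.

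Of the 44 genes, 5 rose in knockout ureter at a limma adjusted p under 0.05: Sfrp2, Dkk2, Dkk3, Wnt5a and Fzd1. Across all genes tested, 1.90% were called higher and 0.477% lower. By limma 0 of the 44 were called lower; an unadjusted p under 0.05 was met by 13 higher and 7 lower genes. Over all genes 12.7% were higher and 13.8% lower at that unadjusted p, so the share of the set that was lower is near the background. In either direction 2.38% of all genes were called at the adjusted p. The 5 risers comprised 3 secreted proteins of the inhibitor families, 1 ligand and 1 receptor. The other 39 genes did not pass, and the median difference of all 44 was -0.04, beside -0.02 for all genes. Both knockout mice lay above both wild type mice for 17 of the 44 genes and below them for 17. Over all genes those shares were 28.0% and 32.0%.

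**Figure D1:**
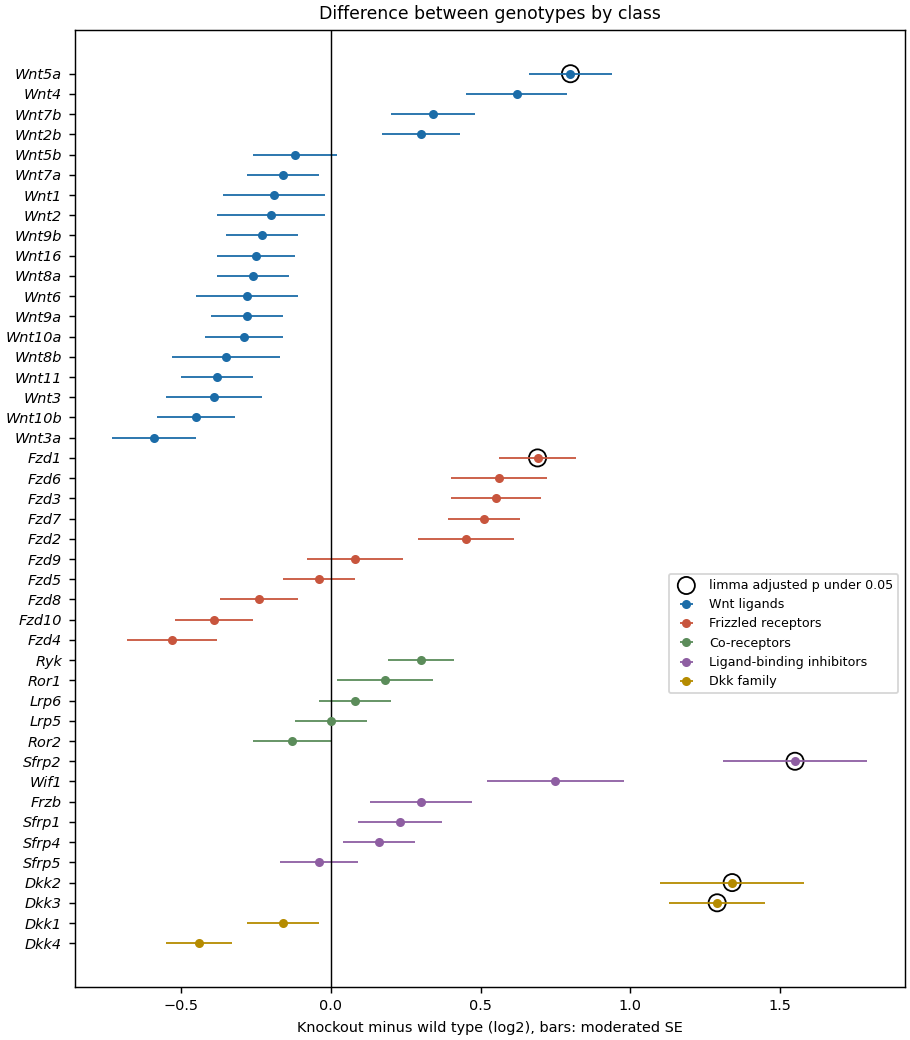
Difference between genotypes for the 44 genes, as knockout minus wild type on the log2 scale with moderated standard errors, coloured by class and with circles around those at a limma adjusted p under 0.05. The circled genes are Wnt5a, Fzd1, Sfrp2, Dkk2 and Dkk3, all to the right of 0, while 15 of 19 ligands lie to the left.

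Upstream sequence is shown for genes that rose, and 30 of the 44 genes matched the RefSeq promoter table of build GRCm38.p6. Among the risers the table held Dkk2, Fzd1 and Sfrp2. The 250 bases before each annotated transcript start are printed 5′ to 3′ on the strand of the gene, with the word TATAAA in capitals. The Dkk2 sequence is chr3:132085042-132085291 on the plus strand, that of Fzd1 is chr5:4758217-4758466 on the minus strand, and that of Sfrp2 is chr3:83766071-83766320 on the plus strand.
Dkk2: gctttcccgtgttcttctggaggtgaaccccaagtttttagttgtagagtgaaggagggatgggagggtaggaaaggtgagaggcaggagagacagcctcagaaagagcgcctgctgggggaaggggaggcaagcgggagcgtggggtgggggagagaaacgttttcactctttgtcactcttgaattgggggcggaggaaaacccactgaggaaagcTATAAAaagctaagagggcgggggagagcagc
Fzd1: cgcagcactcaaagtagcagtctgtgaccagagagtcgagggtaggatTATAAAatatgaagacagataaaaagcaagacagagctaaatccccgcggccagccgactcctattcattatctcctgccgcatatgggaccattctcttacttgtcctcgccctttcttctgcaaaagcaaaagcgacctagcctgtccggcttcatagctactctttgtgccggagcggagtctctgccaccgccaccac
Sfrp2: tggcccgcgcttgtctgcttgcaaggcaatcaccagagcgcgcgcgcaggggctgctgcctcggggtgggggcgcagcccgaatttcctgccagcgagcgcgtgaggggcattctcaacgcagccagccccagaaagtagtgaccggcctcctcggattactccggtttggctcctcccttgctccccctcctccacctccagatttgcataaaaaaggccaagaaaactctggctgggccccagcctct
In the Dkk2 sequence TATAAA spans bases 32 to 27 before the start, and in that of Fzd1 bases 202 to 197. This word, searched on the gene strand only and chosen after the sequences were seen, occurs in 7.59% of 32851 promoters of this length and in 4 of 33 promoters of the set, those of Dkk1 and Wnt11, which did not pass, included. TCF and LEF sites were searched on both strands as CTTTGNN with A or T at each N. None of the 3 printed windows holds such a word, while 4 of 33 promoters of the set do (Dkk1, Fzd7, and 1 promoter each of Wnt11 and Wnt5b), beside 14.8% of all promoters. The CArG box, the binding site of serum response factor, has 0 matches in the 33 windows and occurs in 1.47% of all. Promoters of the set were rich in G and C, with a median of 66.8% against 52.4% for all promoters.

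Wnt5a was the ligand that rose. Its log2 values were 10.05 and 10.23 in wild type against 10.80 and 11.08 in knockout mice. The knockout mice lay wholly above the wild type mice, by 0.80 on the log2 scale (SE 0.14, limma adjusted p = 0.0453), a 1.74-fold rise. Wnt5a is a ligand of the beta-catenin-independent branches and is made by mesenchyme in many organs. The gene did not pass after a further quantile normalization (adjusted p = 0.0643) or without knockout replicate 2 (adjusted p = 0.0617). Over 11 alternatives the adjusted p ran from 0.00552 to 0.216 and the difference from 0.66 to 0.94.

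Another 3 ligands had positive differences and did not pass. Wnt4, known for its part in forming kidney tubules, read 8.20 and 8.66 in wild type against 9.05 and 9.04 in knockout (difference 0.62, SE 0.17, adjusted p = 0.0845). Wnt7b, a ligand of epithelia including the collecting duct, read 7.81 and 8.09 against 8.35 and 8.23 (difference 0.34, adjusted p = 0.172). For Wnt2b the values were 7.28 and 7.47 against 7.75 and 7.61 (difference 0.30, adjusted p = 0.192). In these 3 genes each knockout mouse exceeded both wild type mice, as in 4 of 19 ligands altogether, beside 28.0% of all genes. The urothelial markers, which differed the same way, averaged 11.27 and 11.55 in the wild type mice against 11.85 and 12.20 in the knockouts. Kidney markers averaged 7.03 and 7.81 against 8.94 and 7.17, highest in knockout replicate 1 and next highest in wild type replicate 2. The part of both marker lists in these differences was not tested.

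The other 15 ligands all had negative differences, from -0.59 to -0.12, and 0 of them passed the limma threshold. At an unadjusted p under 0.05 there were 4 of them, of 19 ligands in all, beside 13.8% of all genes. Wnt3a, a classical activator of beta-catenin, read 7.19 and 7.50 in wild type against 6.69 and 6.83 in knockout (difference -0.59, SE 0.14, adjusted p = 0.0732). Wnt10b, which restrains fat cell formation, read 7.08 and 7.32 against 6.82 and 6.68 (difference -0.45, adjusted p = 0.0988). Wnt11, a ligand of the tips of the ureteric bud, read 7.54 and 7.64 against 7.15 and 7.27 (difference -0.38, adjusted p = 0.107). In these 3 genes the knockout mice lay below both wild type mice, as in 11 of 19 ligands altogether, beside 32.0% of all genes. That share was 44.7% for all genes at or below background and 40.7% from there to log2 8. Among the 11, Wnt3, Wnt7a, Wnt8b and Wnt16 had means not above background. Wnt3, the fourth gene at an unadjusted p under 0.05, read 6.36 and 6.79 in wild type against 6.15 and 6.21 in knockout. Its difference was -0.39 (limma adjusted p = 0.177), and 1 value of 4 exceeded background.

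Wnt9b, which the duct epithelium uses to induce kidney mesenchyme, read 7.40 and 7.54 in wild type against 7.25 and 7.23 in knockout. Wnt9a read 7.54 and 7.73 against 7.33 and 7.38, and Wnt10a 7.97 and 8.24 against 7.79 and 7.84. Both genotypes were apart in these 3 genes, with differences of -0.23, -0.28 and -0.29. Wnt5b, the paralog of Wnt5a, read 7.60 and 7.85 in wild type against 7.49 and 7.72 in knockout. Its genotypes overlapped, and the 95% interval of its difference, -0.46 to 0.21, did not reach the 0.80 of Wnt5a; the difference between the 2 paralogs was not tested. Wnt6 overlapped as well, at 6.71 and 6.86 against 6.28 and 6.72.

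Levels of 6 ligands (Wnt1, Wnt2, Wnt3, Wnt7a, Wnt8b and Wnt16) had means not above background in either genotype, so their differences carry no direction of expression. Wnt8a lay above background in wild type, at 6.62 and 6.76, and below it in knockout, at 6.35 and 6.50, lower by at least 1.08-fold without passing (adjusted p = 0.224). Together, the 16 ligands with a mean under log2 8 had a median difference of -0.27, and 15 of them were negative. Genes of like level also leaned this way. The median was -0.12 for all genes at or below background, where 7 of 7 ligands were negative, and -0.08 for all genes from there to log2 8, where 8 of 9 ligands were. After a further quantile normalization, which brought the median of all genes at or below background to -0.01, these 16 ligands had a median of -0.18 and 15 were negative. Without wild type replicate 2, 13 of the 16 were negative, with a median of -0.17. The part of this lean of dim genes in the ligand values was not tested.

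**Figure D2:**
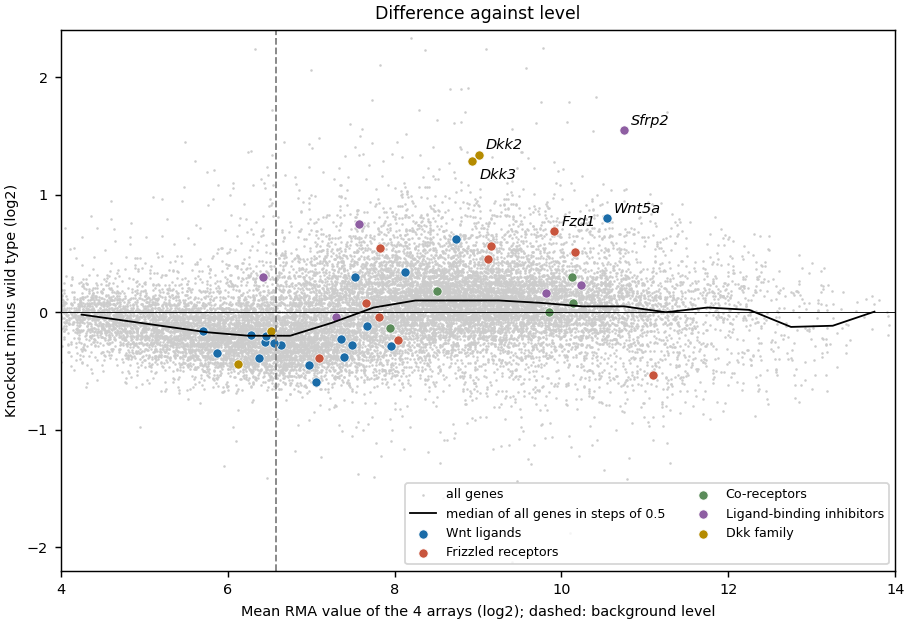
Difference between genotypes (knockout minus wild type, log2) against the mean level of the 4 arrays (log2), for all 19296 genes in grey and the 44 genes in colour, with the median of all genes as a black line and the background level of 6.58 dashed. The line dips below 0 near the background level, where most ligands lie, and the 5 named risers stand above it at higher levels.

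Neighbouring ligand genes had differences of one sign. In the mouse, 8 of the ligand genes stand as adjacent pairs of protein-coding genes: Wnt6 with Wnt10a, Wnt3a with Wnt9a, Wnt9b with Wnt3, and Wnt10b with Wnt1. All 8 had negative differences, -0.28 and -0.29, -0.59 and -0.28, -0.23 and -0.39, and -0.45 and -0.19, in that order. As 15 of 19 ligands were negative, the pairs are described here without a test, and Wnt3 and Wnt1 had means not above background.

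**Figure D3:**
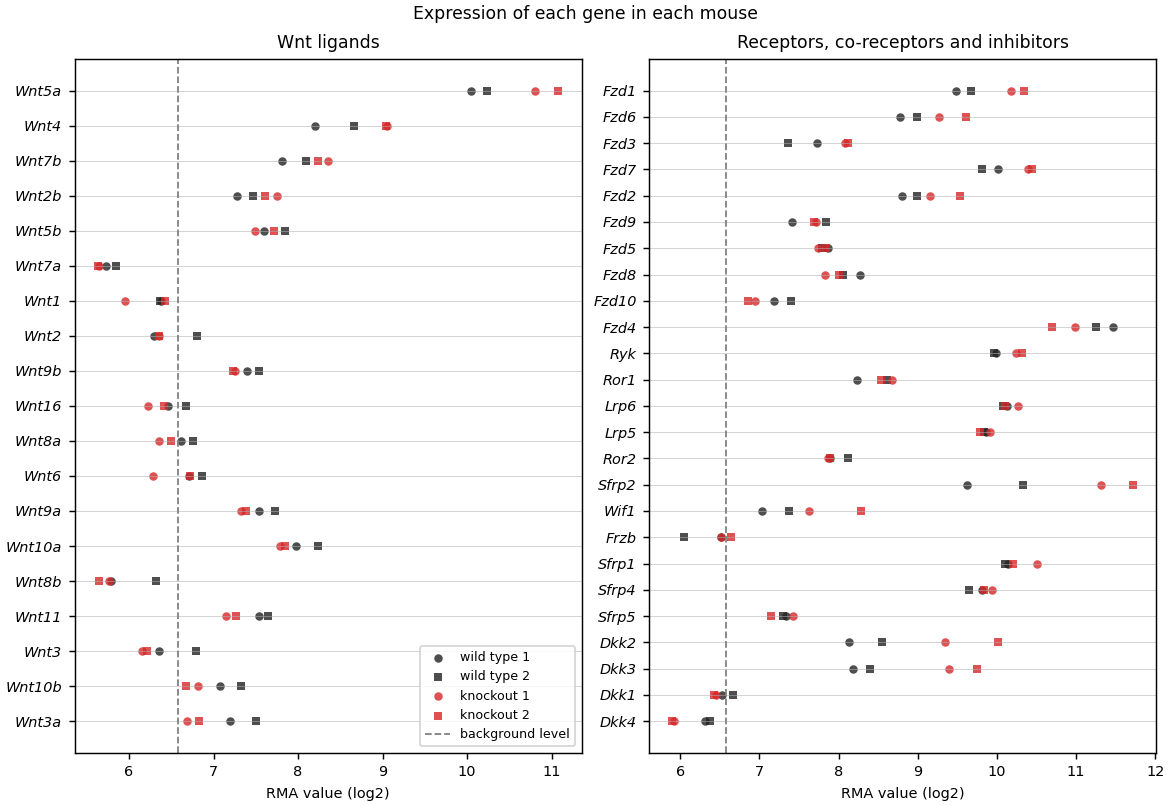
Log2 value of each of the 44 genes in each of the 4 mice, with wild type in black and knockout in red, circles for replicate 1 and squares for replicate 2, and the background level dashed. For Wnt5a, Fzd1, Sfrp2, Dkk2 and Dkk3 both red points lie to the right of both black points.

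Among the Frizzled receptors, the seven-pass membrane proteins that bind Wnt ligands, Fzd1 rose and 9 did not pass. Fzd1 measured 9.48 and 9.67 in wild type against 10.18 and 10.34 in knockout mice. The genotypes did not overlap, and the rise was 0.69 (SE 0.13, limma adjusted p = 0.0499), or 1.61-fold. The call is at the edge of the threshold: it was lost with arrays centred on their medians (adjusted p = 0.0507), after a further quantile normalization (0.0720) and without knockout replicate 2 (0.0838). Over 11 alternatives the adjusted p of Fzd1 ran from 0.0154 to 0.216 and its difference from 0.60 to 0.78.

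Receptors closest to Fzd1 in sequence had differences of the same sign. Fzd7 read 10.01 and 9.81 in wild type against 10.39 and 10.44 in knockout (difference 0.51, SE 0.12, adjusted p = 0.0739). Fzd2 read 8.80 and 8.99 against 9.15 and 9.53 (difference 0.45, adjusted p = 0.135). Fzd3 and Fzd6, a related pair known for their part in planar polarity, differed by 0.55 and 0.56. The values of Fzd3 were 7.73 and 7.36 against 8.08 and 8.12 (adjusted p = 0.0852). Those of Fzd6 were 8.77 and 8.99 against 9.27 and 9.61 (adjusted p = 0.0920). In all 5 of these receptors, Fzd1 included, each knockout mouse lay above both wild type mice. They were 5 of 10 Frizzled receptors, beside 28.0% of all genes.

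The remaining receptors were level or negative. Fzd4, which also serves as the receptor for Norrin in blood vessel growth, read 11.47 and 11.25 in wild type against 10.98 and 10.69 in knockout (difference -0.53, SE 0.15, adjusted p = 0.0915). Fzd10 read 7.18 and 7.40 against 6.94 and 6.85 (difference -0.39, adjusted p = 0.116). Fzd8 averaged 8.16 in wild type and 7.92 in knockout (difference -0.24, adjusted p = 0.289). These 3 of 10 receptors had knockout mice below both wild type mice, beside 32.0% of all genes. Fzd5 (difference -0.04, 95% interval -0.31 to 0.24) and Fzd9 (0.08, -0.30 to 0.46) overlapped between genotypes. The differences of some receptors depended on the knockout mouse left out. Without knockout replicate 1, Fzd1, Fzd2, Fzd6 and Fzd4 differed by 0.77, 0.64, 0.73 and -0.67. Without knockout replicate 2 they differed by 0.61, 0.26, 0.39 and -0.38. Fzd3 and Fzd7 moved less, from 0.58 and 0.53 without knockout replicate 1 to 0.53 and 0.48 without knockout replicate 2. Endothelial markers averaged 10.27 and 10.38 in wild type against 10.28 and 10.09 in knockout, and adipocyte markers 12.81 and 12.71 against 12.49 and 11.99. Both lists were lowest in knockout replicate 2, as Fzd4 was, and their part in its value was not tested.

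Of the 5 co-receptors 0 passed the limma threshold, with 1 higher at an unadjusted p under 0.05. That one was Ryk, an atypical kinase-like Wnt receptor, at 9.99 and 9.96 in wild type against 10.24 and 10.31 in knockout (difference 0.30, SE 0.11, adjusted p = 0.153). Lrp5 and Lrp6, needed for signalling to beta-catenin, were close between genotypes. Lrp5 read 9.86 and 9.84 against 9.91 and 9.79 (difference -0.00, 95% interval -0.28 to 0.27), and Lrp6 10.13 and 10.08 against 10.26 and 10.10 (0.08, -0.21 to 0.36). The intervals allow changes of up to about 0.3 either way, so equality is not shown. Ror1 and Ror2, receptor tyrosine kinases that bind Wnt5a, had differences of 0.18 (95% interval -0.18 to 0.55) and -0.13 (-0.43 to 0.17). Ror1 read 8.23 and 8.61 in wild type against 8.67 and 8.54 in knockout, and Ror2 7.89 and 8.12 against 7.87 and 7.89.

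Inhibitors that bind Wnt ligands included the largest rise of the 44 genes. Sfrp2, a secreted protein with a Frizzled-like cysteine-rich domain, read 9.62 and 10.33 in wild type against 11.32 and 11.72 in knockout mice. The SD of the 2 wild type mice was 0.50, and the knockout mice lay wholly above them, by 1.55 (SE 0.24, limma adjusted p = 0.0368), a 2.93-fold rise. With a further quantile normalization the adjusted p was 0.0532. Over 11 alternatives it ran from 0.00124 to 0.200, and the difference from 1.20 to 1.91.

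Wif1, which binds Wnt through a domain unlike that of Sfrp proteins, read 7.03 and 7.37 in wild type against 7.62 and 8.28 in knockout (difference 0.75, SE 0.23, adjusted p = 0.103). Its knockout mice lay above the wild type mice and were the further apart, and without knockout replicate 1 the gene passed (difference 1.08, adjusted p = 0.00416). Without knockout replicate 2 its difference was 0.42 (adjusted p = 0.246). The other 4 members of this class had small differences. Sfrp1 read 10.14 and 10.10 against 10.50 and 10.20 (difference 0.23, 95% interval -0.09 to 0.56). Sfrp4 read 9.81 and 9.65 against 9.94 and 9.84 (0.16, -0.12 to 0.45). Sfrp5 overlapped at 7.33 and 7.30 against 7.42 and 7.14 (-0.04, -0.36 to 0.28). Frzb read 6.51 and 6.05 against 6.52 and 6.64, with 1 value of 4 above background. In this class 5 of 6 had knockout mice above both wild type mice, beside 28.0% of all genes. Some of these gaps were narrow. The lower knockout mouse read 6.52 beside 6.51 in the higher wild type mouse for Frzb, and 9.84 beside 9.81 for Sfrp4.

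Of the Dkk genes, Dkk2 and Dkk3 rose. Dkk2, which binds Lrp5 and Lrp6 and can inhibit or weakly activate signalling, read 8.13 and 8.55 in wild type against 9.34 and 10.01 in knockout mice. Each knockout mouse lay above the wild type mice, by 1.34 on average (SE 0.24, limma adjusted p = 0.0454), a 2.53-fold rise. Dkk3, a divergent family member whose action on Wnt signalling is unsettled, read 8.18 and 8.39 in wild type against 9.40 and 9.75 in knockout. It rose by 1.29 (SE 0.16, limma adjusted p = 0.0234), or 2.44-fold. With a further quantile normalization Dkk3 was the 1 gene of the 44 still past the threshold, while Dkk2 was at adjusted p = 0.0643. Over 11 alternatives the adjusted p ran from 0.000558 to 0.216 for Dkk2 and from 0.000615 to 0.202 for Dkk3.

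Dkk1, the best known Lrp5 and Lrp6 antagonist, and Dkk4 were at the lower end of the measurable range. Dkk1 read 6.53 and 6.66 in wild type against 6.45 and 6.42 in knockout (difference -0.16, adjusted p = 0.423), and after a further quantile normalization its difference was 0.01. Dkk4 read 6.31 and 6.38 against 5.92 and 5.90, all below background.

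In each of the 5 genes that rose, replicate 2 was the higher mouse of both genotypes. The same held for the mean of the marker list of mesenchyme and fibroblasts, though not for each of its markers. That mean was 10.14 and 10.24 in wild type against 10.72 and 10.85 in knockout. The mean of the urothelial list given above kept this order too. Of 11 mesenchymal markers tested 4 rose, all 11 had positive differences and the median was 0.46. All 12 urothelial markers were positive and 1 rose, while 8 of 10 smooth muscle markers were positive and 1 rose. Over all genes 1.90% rose and 47.1% were positive. The positive share was 65.7% of all genes from log2 8 to 10 and 55.4% of those over log2 10. Tbx18, a transcription factor of ureter mesenchyme, rose by 0.80 and Lum, a proteoglycan of collagen fibrils, by 1.70. Neither gene had replicate 2 higher in both genotypes. Tbx18 read 9.43 and 9.41 in wild type against 10.33 and 10.11 in knockout, and Lum 10.56 and 10.27 against 11.97 and 12.26. Col1a1 and Col1a2 rose too and had replicate 2 higher in both genotypes. Col1a1 read 9.74 and 10.03 against 10.67 and 11.01, and Col1a2 9.73 and 9.88 against 10.46 and 10.74. Smooth muscle list means were 11.12 and 11.02 against 11.39 and 11.22. The median differences of the mesenchymal, urothelial and smooth muscle lists were 0.46, 0.65 and 0.27, and the part of cell composition in the 5 rises was not tested. The kidney list averaged 7.03 and 7.81 in wild type against 8.94 and 7.17 in knockout.

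**Figure D4:**
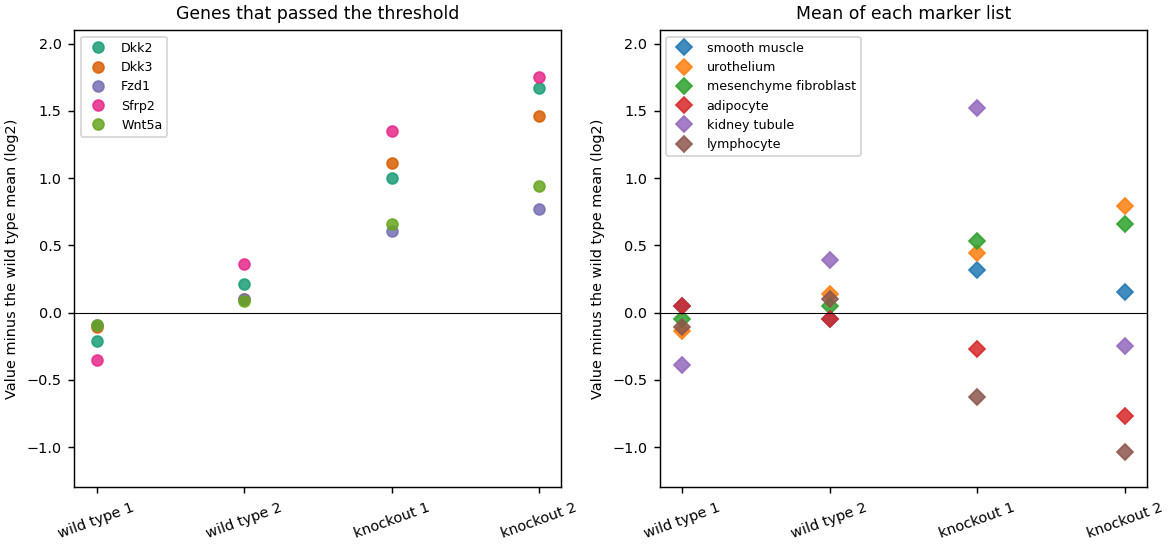
Values of the 5 genes that rose (left) and means of 6 marker lists (right) in each mouse, as log2 differences from the wild type mean. Both knockout mice exceed both wild type mice for the 5 genes and for the mesenchymal, urothelial and smooth muscle lists. The kidney list is highest in knockout replicate 1 and next highest in wild type replicate 2.

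Without wild type replicate 1 or wild type replicate 2, limma passed 0 of 19296 genes, the deleted microRNA genes included, so the calls of all 5 genes needed both wild type mice. An unadjusted p under 0.05 was met by 19 of the 44 genes without the first, beside 4253 of all genes, and by 17 without the second, beside 3079. Leaving out knockout replicate 1 gave 8 higher genes and 1 lower of the 44, beside 5.78% and 3.26% of all genes. Leaving out knockout replicate 2 gave 3 higher, beside 2.26%.

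Other genes of the pathway were read from 4 lists, 107 genes in all with the 44 left out. Of these 5 rose, 0 fell and 102 did not pass by limma, beside 1.90% of all genes called higher and 0.477% lower. An unadjusted p under 0.05 was met by 25 higher and 10 lower genes, beside 12.7% and 13.8% of all genes. The median difference was 0.13, and 73 were positive. Genes of like level also leaned this way between log2 8 and 10, where 54 of the 107 lay. There 74.1% of these and 65.7% of all genes were positive, with medians of 0.16 and 0.10. Over log2 10 the gap was wider, with 90.5% of 21 pathway genes and 55.4% of all genes positive, and medians of 0.22 and 0.03. From background to log2 8 the shares were 48% of 25 and 40.3%, with medians of -0.10 and -0.08. The list of extracellular and membrane modulators held 25 tested genes, of which 3 rose and 0 fell. An unadjusted p under 0.05 was met by 11 higher and 5 lower genes of this list, and its median was 0.16. Lgr5, a receptor for R-spondins and a stem cell marker of several epithelia, read 7.53 and 8.33 in wild type against 9.58 and 10.10 in knockout, a rise of 1.91 (SE 0.28, adjusted p = 0.0328). Its relative Lgr6 read 7.81 and 8.03 against 9.39 and 8.89 (rise 1.22, adjusted p = 0.0353). Tpbg, a membrane protein that shifts Wnt signalling away from the beta-catenin branch, read 7.70 and 7.74 against 8.53 and 8.57 (rise 0.83, adjusted p = 0.0314). The knockout mice lay above the wild type mice in all 3, and Lgr6 did not pass after a further quantile normalization (adjusted p = 0.0515).

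Of 34 genes of the cytoplasm and nucleus 0 passed by limma; 3 higher and 1 lower gene met an unadjusted p under 0.05, and the median was 0.13. Ctnnb1, which encodes beta-catenin, read 12.21 and 12.23 in wild type against 12.36 and 12.53 in knockout (difference 0.22, adjusted p = 0.275). The smallest p values were those of Dact1, a Dishevelled-binding modulator, Tle1, a co-repressor of TCF proteins, and Pygo1, a nuclear co-activator. They differed by 0.60, 0.48 and -0.43 at adjusted p = 0.0704, 0.0723 and 0.0834. Of 30 genes of the polarity and calcium branches 0 passed by limma; 2 higher and 1 lower gene met an unadjusted p under 0.05, and the median was 0.08. Invs, a ciliary protein that acts in the switch between branches, differed by 0.57 (adjusted p = 0.0567) and the polarity gene Vangl1 by 0.50 (adjusted p = 0.0808). Ankrd6 differed by -0.29 (adjusted p = 0.171).

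Genes reported as transcriptional targets of beta-catenin had mostly positive differences. Of 23 tested, 3 rose, 0 fell and 20 did not pass; 18 differences were positive and the median was 0.45, against 47.1% positive and a median of -0.02 over all genes. Between log2 8 and 10 there were 10 of these targets, of which 9 were positive with a median of 0.57, against 65.7% and 0.10 for all genes there. Over log2 10, 4 of 4 were positive with a median of 0.70, against 55.4% and 0.03. From background to log2 8, 3 of 7 were positive with a median of -0.14, against 40.3% and -0.08. With Lgr5, the risers were Tnfrsf19, a member of the TNF receptor family, and Nkd2, an antagonist that binds Dishevelled. Tnfrsf19 read 8.43 and 8.63 in wild type against 9.27 and 9.43 in knockout (rise 0.81, adjusted p = 0.0388). Nkd2 read 8.55 and 8.42 against 9.21 and 9.07 (rise 0.65, adjusted p = 0.0499). A further quantile normalization ended both calls (adjusted p = 0.0614 and 0.0718), and that of Nkd2 was also lost with centred arrays (0.0533) and without knockout replicate 1 (0.0536). Axin2, a feedback inhibitor widely used as a readout of the beta-catenin branch, was 1 of 5 targets with a negative difference. It read 8.41 and 8.56 in wild type against 8.05 and 8.01 in knockout, with both knockout mice below the wild type mice (difference -0.46, SE 0.12, adjusted p = 0.0812). Over 11 alternatives the difference of Axin2 ran from -0.56 to -0.38 and it passed in 0 of them. Lef1, a DNA-binding partner of beta-catenin, overlapped at 7.03 and 7.32 against 7.25 and 7.41 (difference 0.16, 95% interval -0.18 to 0.49).

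**Figure D5:**
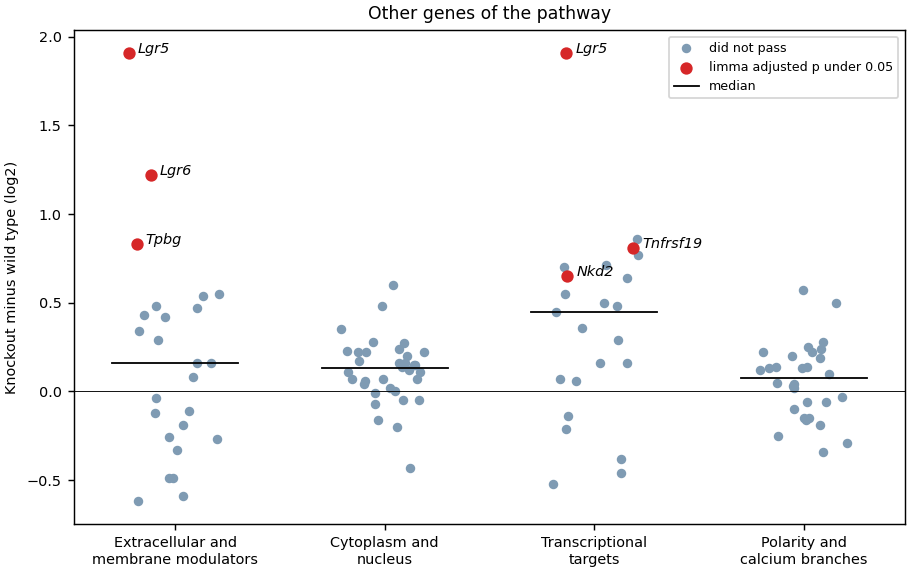
Difference between genotypes (knockout minus wild type, log2) of the other genes of the pathway, by list, with those at a limma adjusted p under 0.05 in red and list medians as bars; Lgr5 stands in 2 lists. The red points are Lgr5, Lgr6, Tpbg, Tnfrsf19 and Nkd2, all above 0.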

How the data were processed

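Total RNA of 4 ureters, 500 ng each, was hybridised to 1 Affymetrix whole-transcript array per mouse, per the labels' protocols. The authors deposited log2 expression values per probe set. Their processing notes name R 2.15.0, RMA and limma 3.12.1. RMA equalises the distributions of arrays, which can hide a shift common to most genes. The genome build behind the probe sets was not given in the sources used here.

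Of 23309 probe sets, 20728 had 1 gene symbol in the platform annotation, and the brightest over the 4 arrays stood for each of 19296 genes. Background is the 95th percentile of olfactory receptor gene means. The genotypes were compared over all genes with limma 3.58.1 (R 4.3.3), with Benjamini-Hochberg adjustment and a threshold of 0.05; SE and 95% intervals are moderated. The fit was tested on simulated data. No counting depth exists for arrays, and 2 mice per genotype limit the precision. A fold given as "at least" sets the brighter mean against the higher of background and the measured value.

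The genes and lists were chosen with earlier results of these data known. All 44 genes are accounted for. Other genes are named where they passed in a pathway list or had 1 of its 3 smallest p. Axin2, Lef1, Lgr5, Ctnnb1, Mir143 and Mir145a were set beforehand. Of the marker lists, only some of the genes that passed are named. These are Tbx18, Lum, Col1a1 and Col1a2, and they were picked after their values were seen. Other settings tried were a filter on dim genes, a replicate block, further quantile normalization, centring on medians, the mean of probe sets, an intensity trend, robust eBayes and leaving out each mouse.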

Additional observations from a re-analysis of the deposited data

How the results depend on the processing

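The labels number the mice of both genotypes 1 and 2. Deviations of same-numbered mice from their genotype means correlated at -0.03 across genes. This correlation cannot tell whether such mice share more than a number, because gene groups of opposite sign can cancel. With the number as a replicate block, 10 of the 44 genes were higher and 2 lower, 16 and 5 of the other pathway genes, and 1164 and 758 of all genes, beside 367 and 92 of all genes without it. A filter on dim genes gave 10 higher pathway genes, beside 535 higher genes in all (3.76% of the 14227 tested) and 147 lower. A further quantile normalization gave 1 higher gene of the 44, 2 higher pathway genes, and 155 higher and 49 lower genes in all. Centred arrays, under which the median of all genes was -0.10 in place of -0.02, gave 3 lower pathway genes and 317 lower genes in all, beside 309 higher. Robust eBayes gave 11 higher and 2 lower pathway genes, and 655 and 247 of all genes. Leaving out 1 mouse at a time gave 0 to 8 higher and 0 to 1 lower of the 44, 0 to 14 higher and 0 to 1 lower pathway genes, and 0 to 1115 higher and 0 to 629 lower genes in all; the zeros among higher genes came without a wild type mouse, where the lone mouse is taken to vary like the other genotype. The cause was not tested.

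Signs changed in genes that never passed. Dkk1 was at 0.01 and Sfrp5 at 0.00 with further quantile normalization, Fzd9 at -0.00 with centred arrays, and Lrp6 at -0.00 with either. Leaving out 1 mouse, Fzd5 ran from -0.09 to 0.01, Fzd9 from -0.14 to 0.29, Lrp5 from -0.06 to 0.06, Lrp6 from -0.00 to 0.16, Ror1 from -0.01 to 0.38, Sfrp5 from -0.18 to 0.10, Wnt1 from -0.42 to 0.04, Wnt2 from -0.45 to 0.05 and Wnt5b from -0.25 to 0.00. The 5 genes that rose kept a positive difference in every alternative run.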
